A study of Mus musculus with 6 samples.

Results

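The p53 pathway genes described here are p53 itself (Trp53), its inhibitors Mdm2 and Mdm4, and 28 genes known as p53 targets outside the BCL2 family. They were chosen by gene symbol, and all 31 were found among the 37620 genes of the count table. The comparison was between splenic B cells of C57Bl/6 mice aged 4 months that carried the empty retroviral vector pMIR (3 libraries) and cells that carried pMIR-Sox2, the same vector with the transcription factor Sox2 (3 libraries). All cultures had been activated with anti-CD40 (1 µg/ml) and IL-4 (12.5 µg/ml), infected after 24 h and again after 48 h, and sorted after 96 h for mCherry, the marker of infection. The controls therefore shared the activation, the infection and the sort, and the introduced Sox2 was made from a retrovirus. Whether each replicate is a different mouse is not in the labels, and p-values therefore reflect library-to-library spread that may be technical.

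p53 is a transcription factor that is kept low by the ubiquitin ligase MDM2 and its relative MDM4. DNA damage and other stresses release it, mostly by stabilising the protein, and it then switches on genes of cell cycle arrest, cell death, DNA repair and metabolism, together with Mdm2, which closes a feedback loop. Activated B cells divide fast and break their own DNA during antibody class switching, and p53 is known as a guard against the damage this can leave. RNA counts show transcripts and not the amount or activity of the p53 protein.

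The pMIR libraries held 21421769 to 27692437 gene counts each and the pMIR-Sox2 libraries 17153805 to 20770447. Levels are given as CPM, the share of a library's gene counts with TMM scaling, in which 1 count was worth 0.0369 to 0.0580 CPM and a fall in all RNA per cell would not be seen. Sox2 was read at 0.738, 0.334 and 1.78 CPM in pMIR replicates 1 to 3 and at 989, 786 and 624 CPM in pMIR-Sox2 replicates 1 to 3. The 9 B cell markers measured summed to 11769 to 13938 CPM in pMIR and 6155 to 8790 CPM in pMIR-Sox2, with 7 of 9 lower and 1 higher. Sums of 12 T cell markers were 73.7 to 90.6 and 53.1 to 76.0 CPM (1 fell), with Trbc1 and Trbc2 at 0 in every library, and those of 12 myeloid markers were 36.9 to 39.2 and 38.4 to 43.3 CPM (3 rose and 1 fell), with S100a8 and S100a9 at 0. The 10 NK and erythroid markers summed to 1.33 to 1.58 and 5.39 to 11.1 CPM (2 rose), with Hbb-b1, Hba-a1, Hba-a2 and Ncr1 at 0. The 2 that rose were Klrd1 (means of 0.0282 and 4.87 CPM) and Hbb-b2 (0.751 and 1.83 CPM). Single genes made up most of some sums. Cd74 had means of 8964 and 4371 CPM among the B cell markers, and Lck 59.4 and 47.8 CPM among the T cell markers. The 10 plasma cell markers summed to 1773 to 2009 and 1023 to 1280 CPM, with 5 lower and 1 higher. The part of these markers in the results below was not tested. In bulk RNA, fewer cells of a type and less RNA per cell cannot be told apart.

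With Sox2 some members rose and others fell, as did genes over the whole table. Rrm2b, Trp53inp1, Sesn1 and Apaf1 rose, and Cdkn1a, Plk3, Psrc1, Perp, Aen, Phlda3, Zmat3, Gpx1, Fdxr and Pvt1 fell, while Trp53, Mdm2 and Mdm4 did not pass the test. Of the 30 members that passed the filter on low counts, 4 rose (13.3%), 10 fell (33.3%) and 16 did not pass, at an edgeR quasi-likelihood adjusted p under 0.05. Of all 12898 genes tested apart from Sox2, 43.2% passed, 23.2% upward and 20% downward, so that passing was common in this comparison. The median log2 fold change (pMIR-Sox2 over pMIR) was −0.20 over the 30 members and −0.02 over all genes tested. The values of the groups did not overlap in 14 members, 4 with pMIR-Sox2 above and 10 below, against 56.5% of all genes (28.9% above and 27.6% below). All 3 replicate pairs had the same sign in 76.7% of the tested members and in 74.3% of all genes. The count that fell was 5 without pMIR replicate 1 (13.5% of all genes fell in that fit) and 6 without pMIR-Sox2 replicate 2 (14.7%).

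**Figure D1:**
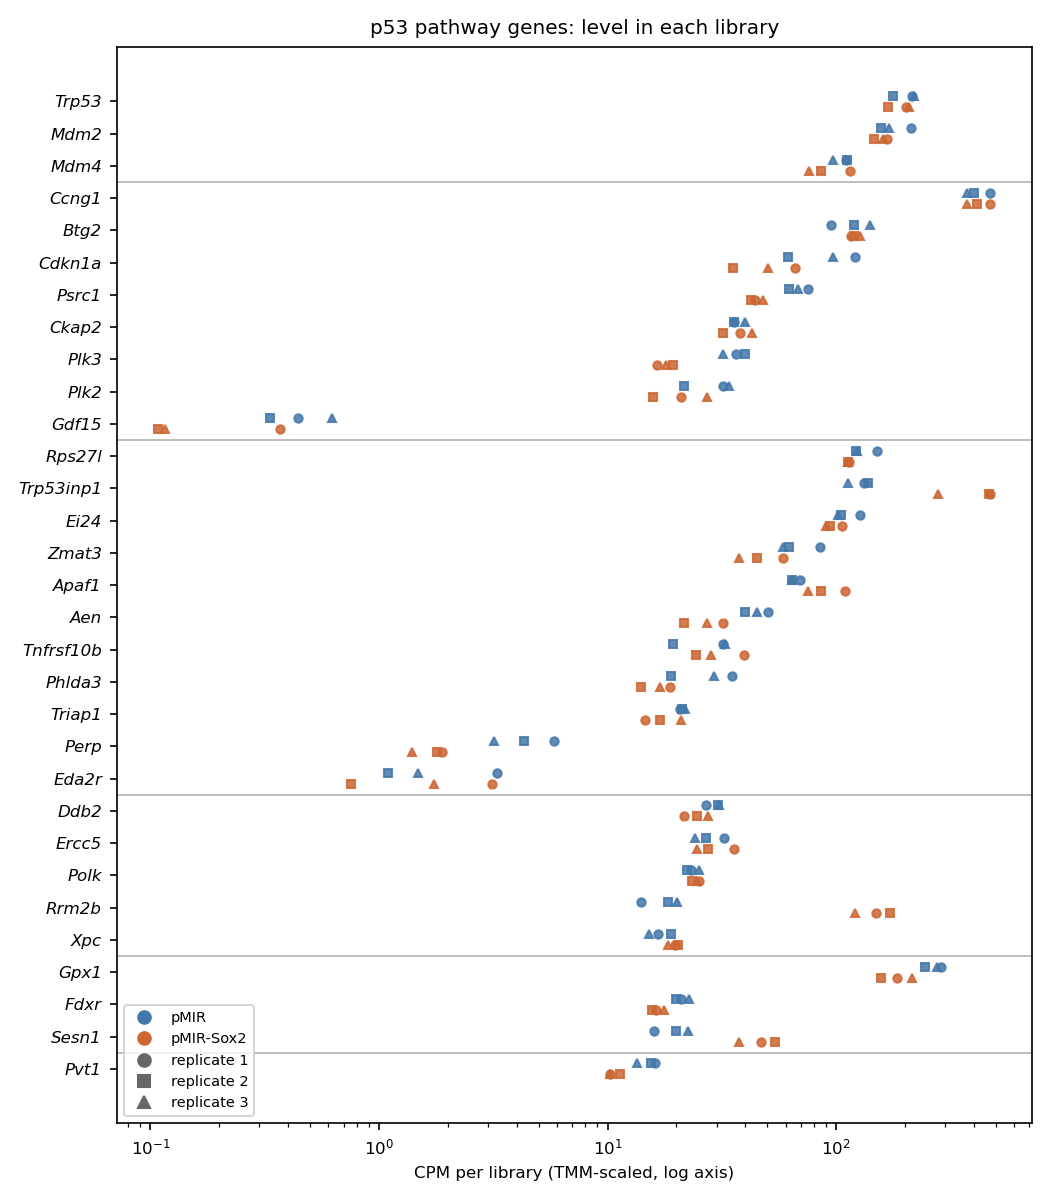
Level of each of the 31 p53 pathway genes in each library, in CPM on a log axis, grouped by role with lines between roles (core circuit, cell cycle and mitosis, cell death and stress, DNA repair and nucleotides, metabolism and redox, long noncoding RNA). Blue is pMIR, orange is pMIR-Sox2 and the marker shape is the replicate number; Rrm2b, Trp53inp1 and Sesn1 are well apart between groups, and Trp53 and Ccng1 lie on top of each other.

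**Figure D2:**
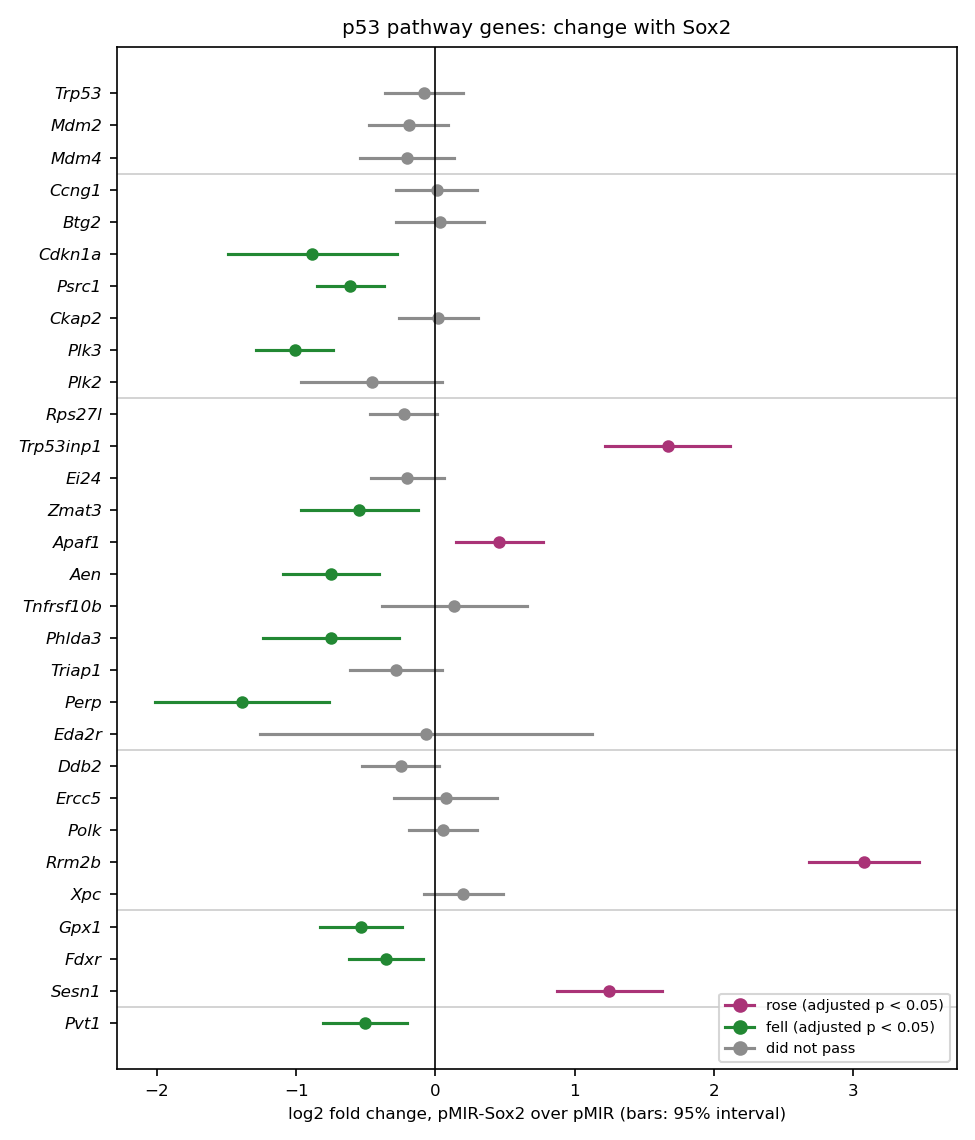
Log2 fold change of the 30 tested members, pMIR-Sox2 over pMIR, with its 95% interval from the edgeR fit. The 4 members that rose run from 0.46 to 3.07 and the 10 that fell from −1.39 to −0.36.

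Promoter sequence shows which of these genes carry an exact p53 motif in the 250 bases before an annotated start. Sites further upstream or within the genes were not searched, so a gene without a match here may hold a p53 site elsewhere. RefSeq promoters of build GRCm38.p6 were given for 23 of the 31 members, and the entries for Rrm2b, Trp53inp1, Perp, Tnfrsf10b, Ddb2, Xpc, Zmat3 and Pvt1 are missing. The p53 decamer is the 10-base motif that 1 pair of p53 molecules binds. Its letters are purine, purine, purine, C, A or T, A or T, G, pyrimidine, pyrimidine, pyrimidine, and no mismatch was allowed. This decamer was found in the 250 bases upstream of 10 of these 23 genes (43.5%), against 8.20% of all 27025 genes with a promoter. The members were chosen as known genes of the p53 pathway, so the higher share cannot be taken as a result of these data. The pattern reads the same on both strands. The SOX motif CATTGT, searched on both strands with no overlap between the motifs in these letters, stood in 1 of the 23 (Rps27l) against 12.2% of all genes. A match is a description of the letters in this window and not evidence of binding. The members below are those with a decamer outside annotated exons, which stands in capitals with 10 bases to either side, written 5′ to 3′ on the strand of the gene. They are shown because genes that fell, rose and did not pass are all among them.
Cdkn1a (fell), chr17:29090896-29090925, plus strand: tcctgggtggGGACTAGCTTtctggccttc
Cdkn1a (fell), chr17:29090918-29090947, plus strand: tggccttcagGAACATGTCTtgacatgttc
Sesn1 (rose), chr10:41887256-41887285, plus strand: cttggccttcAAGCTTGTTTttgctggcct
Trp53 (did not pass), chr11:69580274-69580303, plus strand: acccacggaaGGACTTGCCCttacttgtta
Mdm2 (did not pass), chr10:117710925-117710954, minus strand: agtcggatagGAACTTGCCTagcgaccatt
Ccng1 (did not pass), chr11:40755452-40755481, minus strand: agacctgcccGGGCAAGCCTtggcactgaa
Ckap2 (did not pass), chr8:22186003-22186032, minus strand: ctgtgtctgaAGACATGTCCtgacttgtca
Polk (did not pass), chr13:96519399-96519428, minus strand: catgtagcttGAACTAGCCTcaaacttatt
Rps27l (did not pass), chr9:66946193-66946222, plus strand: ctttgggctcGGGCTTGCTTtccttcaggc
Rps27l (did not pass), chr9:66946296-66946325, plus strand: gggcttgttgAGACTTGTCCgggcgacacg
Aen and Ei24 also matched, within annotated exons, and are not printed. The marked decamers are exact matches, and near-matches beside them stay in small letters. In Cdkn1a the second decamer is followed directly by tgacatgttc, which departs from the motif in 1 base. By exact match, Cdkn1a was the member with 2 decamers within 13 bases of each other. This arrangement was found in 1 of 31 member promoter windows (3.23%) and in 0.0639% of all 32851 promoter windows. The search for it was added after the promoters were seen, so these shares are a description only. Cdkn1a had 2 promoter windows, and the decamers were found in 1 of them. They lay at positions −73 to −64 and −51 to −42 from the start of that window's transcript, 12 bases apart.

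The upstream window of Cdkn1a that holds both decamers is shown because this gene is the best known p53 target and fell here. Both decamers are in capitals, and the last 3 bases before the start, which lie in an annotated exon, were left off (GRCm38.p6, chr17:29090729-29090975, plus strand).
Cdkn1a: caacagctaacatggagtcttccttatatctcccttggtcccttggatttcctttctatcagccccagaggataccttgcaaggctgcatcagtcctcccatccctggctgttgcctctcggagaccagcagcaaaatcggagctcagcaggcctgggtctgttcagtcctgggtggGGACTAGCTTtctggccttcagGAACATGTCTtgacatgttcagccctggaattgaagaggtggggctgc

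The core circuit of p53 and its inhibitors did not pass the test in any of its 3 members. Trp53 (ENSMUSG00000059552) stood at 215, 178 and 218 CPM in pMIR replicates 1 to 3 and at 202, 168 and 208 CPM in pMIR-Sox2 replicates 1 to 3. The groups overlapped almost fully, and the difference between replicates 1 and 2 of the same group was larger than that between groups. The log2 fold change of Trp53 was −0.08 ± 0.12 (SE, adjusted p = 0.627), with a 95% interval of −0.36 to 0.20. Mdm2, the ubiquitin ligase that is both brake and target of p53, was read at 212, 158 and 171 CPM in pMIR and at 166, 147 and 160 CPM in pMIR-Sox2. Its highest library was pMIR replicate 1, and the others overlapped (−0.19 ± 0.13, adjusted p = 0.245, interval −0.48 to 0.09). Mdm4, which inhibits p53 without degrading it, was at 111, 112 and 96.3 CPM in pMIR and at 115, 85.7 and 76.3 CPM in pMIR-Sox2. Its change was −0.20 ± 0.15 (adjusted p = 0.300), and without pMIR-Sox2 replicate 1, the library in which Mdm4 was highest, it was −0.38 with adjusted p = 0.0412.

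Among genes of cell cycle arrest and mitosis, 3 of 7 tested members fell and the other 4 did not pass, where 43.2% of all genes passed and 20% fell. Cdkn1a (ENSMUSG00000023067), which encodes the cyclin-dependent kinase inhibitor p21, was at 121, 61.6 and 97.2 CPM in pMIR and at 65.8, 35.5 and 50.3 CPM in pMIR-Sox2. The groups overlapped, because pMIR replicate 2 was below pMIR-Sox2 replicate 1, yet within each numbered pair the Sox2 library was lower by a like amount (log2 ratios of −0.88, −0.80 and −0.95). The fitted change was −0.88 ± 0.27 (adjusted p = 0.0260). Keeping all low-count genes ended the call (adjusted p = 0.201), as did leaving out pMIR replicate 1 (0.0960), pMIR replicate 3 (0.0651) or pMIR-Sox2 replicate 2 (0.102). With the replicate number as a block, which pairs the same-numbered libraries, the change was −0.88 ± 0.096 (adjusted p = 1.06e-06).

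Plk3, a stress-responsive kinase of the polo family, showed no overlap between groups. Its levels were 36.4, 39.99 and 32.0 CPM in pMIR and 16.4, 19.3 and 18.1 CPM in pMIR-Sox2. The change was −1.01 ± 0.12 (adjusted p = 0.000302), a 2.02-fold fall. The opposite-strand gene Tctex1d4, which is also in the count table, overlaps 84 bases of the exons of Plk3. Its relative Plk2, also a target of p53, was at 32.1, 21.6 and 33.9 CPM in pMIR and 20.9, 15.8 and 27.2 CPM in pMIR-Sox2. Plk2 did not pass in the unpaired test (−0.46 ± 0.22, adjusted p = 0.126), although it was lower in 3 of 3 pairs. With the replicate block it passed (−0.46, adjusted p = 0.00206), and it also passed when pMIR replicate 2 (0.0342) or pMIR-Sox2 replicate 3 (0.0300) was left out.

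Psrc1, which encodes a spindle-associated protein, fell, and its groups did not overlap. It was at 75.0, 62.1 and 68.2 CPM in pMIR and at 44.0, 42.5 and 48.0 CPM in pMIR-Sox2 (−0.61 ± 0.11, adjusted p = 0.00200). The spindle-associated Ckap2 did not pass, at 37.0 ± 2.34 CPM (SD, n = 3) in pMIR and 37.6 ± 5.38 CPM (n = 3) in pMIR-Sox2. Ccng1, which encodes cyclin G1 and is a p53 target in many cell types, was at 472, 399 and 375 CPM in pMIR and 468, 412 and 373 CPM in pMIR-Sox2. Its values lay close within each pair, with a log2 fold change of 0.01 ± 0.13 and an interval of −0.28 to 0.30. The antiproliferative gene Btg2 was at 118 ± 23.1 and 121 ± 5.86 CPM (0.03 ± 0.14). Gdf15, a secreted stress cytokine, was hardly transcribed and did not pass the filter on low counts. It had 12, 7 and 13 counts in the pMIR libraries and 8, 2 and 2 in the pMIR-Sox2 libraries.

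Of the 11 genes of cell death and stress, 2 rose, 4 fell and 5 did not pass, where 23.2% of all genes rose and 20% fell. Trp53inp1 (ENSMUSG00000028211), a stress protein of autophagy and cell death, had the largest rise of this group. It was at 133, 137 and 112 CPM in pMIR and at 471, 465 and 277 CPM in pMIR-Sox2. Even the lowest Sox2 library, replicate 3, was over every control, and the log2 fold change was 1.67 ± 0.20 (adjusted p = 0.000285), a 3.17-fold rise. Apaf1, the scaffold of the apoptosome that activates caspase-9, rose less, from 69.2, 63.7 and 63.9 CPM to 109, 85.8 and 75.3 CPM (0.46 ± 0.14, adjusted p = 0.0238). Its groups did not overlap, but the log2 ratio was 0.24 in pair 3 against 0.66 in pair 1. The call was lost on leaving out any control library (adjusted p = 0.0531, 0.0620 and 0.0816 for replicates 1 to 3) or pMIR-Sox2 replicate 1 (0.0681, log2 fold change 0.30). With the replicate block it was kept (0.44, adjusted p = 0.00151).

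Perp, a membrane protein of desmosomes and p53-dependent apoptosis, had the largest fall of all 31 members. Its counts were 158, 90 and 66 in pMIR and 41, 33 and 24 in pMIR-Sox2, or 5.83, 4.29 and 3.17 against 1.88, 1.79 and 1.39 CPM. The groups did not overlap (−1.39 ± 0.28, adjusted p = 0.00364). Aen, an apoptosis-enhancing nuclease, fell from 50.4, 40.1 and 45.2 CPM to 32.0, 21.6 and 27.1 CPM (−0.75 ± 0.15, adjusted p = 0.00431). Here too no Sox2 library reached the lowest control.

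Phlda3, which restrains the kinase AKT, was at 35.1, 18.9 and 29.3 CPM in pMIR and at 18.7, 14.0 and 16.9 CPM in pMIR-Sox2. pMIR replicate 2 lay just over pMIR-Sox2 replicate 1. The change was −0.75 ± 0.22 (adjusted p = 0.0205), and the call was lost without pMIR replicate 1 (0.0833), pMIR replicate 3 (0.0601) or pMIR-Sox2 replicate 2 (0.0706). With the replicate block the call was kept (−0.72, adjusted p = 9.33e-05). Zmat3, an RNA-binding zinc finger protein, was at 84.6, 62.3 and 58.5 CPM in pMIR and at 58.3, 44.8 and 37.6 CPM in pMIR-Sox2. The groups touched but did not cross, and the change of −0.55 ± 0.19 (adjusted p = 0.0408) lost its call without pMIR replicate 1 (0.153), pMIR-Sox2 replicate 2 (0.114) or pMIR-Sox2 replicate 3 (0.0970) and with library totals as the only scaling (0.0847). The replicate block kept the call of Zmat3 (−0.55, adjusted p = 0.00014).

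The receptors of this group did not pass. Tnfrsf10b, the mouse TRAIL receptor, was at 32.0, 19.3 and 32.6 CPM in pMIR and at 39.5, 24.3 and 28.4 CPM in pMIR-Sox2 (0.14 ± 0.23). Eda2r, the receptor of ectodysplasin A2, was low and varied most among the tested members, at 3.28, 1.10 and 1.49 CPM in pMIR and 3.12, 0.757 and 1.74 CPM in pMIR-Sox2. Its interval of −1.26 to 1.12 leaves a change of over 2-fold in either direction undetected at this depth and spread. Rps27l, a ribosomal protein paralog that affects p53 stability, was at 151, 123 and 123 CPM in pMIR and at 114, 112 and 113 CPM in pMIR-Sox2. Its groups did not overlap, but the fall of −0.23 ± 0.11 did not pass (adjusted p = 0.115). Ei24, a protein of the endoplasmic reticulum, stood at 111 ± 13.4 and 96.6 ± 8.38 CPM (−0.20 ± 0.12, adjusted p = 0.194). Triap1, an inhibitor of apoptosis, was at 20.7, 21.2 and 21.8 CPM in pMIR and at 14.5, 16.9 and 20.98 CPM in pMIR-Sox2 (−0.28 ± 0.15, adjusted p = 0.149). Its value in pMIR-Sox2 replicate 3 was at the level of the controls, and without that library the change was −0.43 with adjusted p = 0.0252.

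Of the 5 genes of DNA repair and nucleotide supply, Rrm2b rose and 4 did not pass, where 43.2% of all genes passed. Rrm2b (ENSMUSG00000022292) encodes p53R2, the small subunit of ribonucleotide reductase that supplies DNA building blocks for repair and for mitochondria outside S phase. It had the largest change of all members. Its levels were 14.0, 18.4 and 20.1 CPM in pMIR and 149, 172 and 121 CPM in pMIR-Sox2. The lowest Sox2 library was far over the highest control, and the log2 fold change was 3.07 ± 0.18 (adjusted p = 9.35e-06), an 8.42-fold rise. The rise was 3.40, 3.22 and 2.59 on the log2 scale in pairs 1 to 3. An antisense gene, Gm49085, overlaps Rrm2b in the GENCODE M21 annotation. The strand setting of the counting is not given, and without strand reads of such a pair cannot be told apart.

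The other subunits of the enzyme did not pass the test. Rrm2, the S-phase small subunit, was at 355, 279 and 315 CPM in pMIR and at 301, 214 and 306 CPM in pMIR-Sox2 (−0.21 ± 0.16, adjusted p = 0.299). Rrm1, the large subunit, was at 447 ± 44.8 and 393 ± 67.0 CPM (−0.19 ± 0.15, adjusted p = 0.325). Per kilobase of exon, Rrm2b made up 1.19, 1.96 and 1.90% of the small subunit transcripts (Rrm2b and Rrm2 together) in pMIR and 13.03, 19.7 and 10.7% in pMIR-Sox2. Rrm2 thus stayed the more abundant small subunit in every library.

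None of the members that recognise or bypass DNA lesions passed. Ddb2, a sensor of ultraviolet damage, was at 26.8, 30.3 and 30.6 CPM in pMIR and 21.6, 24.6 and 27.6 CPM in pMIR-Sox2 (−0.25 ± 0.12, adjusted p = 0.132). Xpc, which starts global nucleotide excision repair, was at 16.9 ± 1.90 and 19.4 ± 1.00 CPM (0.20 ± 0.13). Ercc5, the nuclease that cuts 3′ of the lesion, was at 27.8 ± 4.24 and 29.3 ± 5.74 CPM (0.07 ± 0.16). For Polk, a translesion polymerase, the values were 23.5 ± 1.44 and 24.4 ± 0.984 CPM (0.05 ± 0.11). The 95% intervals of these 4 genes all lay within −0.53 to 0.49 on the log2 scale. The opposite-strand gene Acp2 overlaps exons of Ddb2, AC167363.2 those of Cdkn1a and Gm26787 those of Ei24. Acp2 is among the genes of the count table, and AC167363.2 and Gm26787 are not.

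Of the 3 metabolic members, 1 rose and 2 fell, where 43.2% of all genes passed. Sesn1 (ENSMUSG00000038332), a sestrin that restrains the growth kinase mTORC1, was at 16.0, 19.9 and 22.5 CPM in pMIR and at 47.1, 54.0 and 37.6 CPM in pMIR-Sox2. The groups were well apart, with a log2 fold change of 1.25 ± 0.17 (adjusted p = 0.000476). Its paralog Sesn2, which is not among the 31 genes and is induced by p53 and by amino acid stress, went the other way. Sesn2 was at 168, 116 and 131 CPM in pMIR and at 50.03, 42.5 and 59.4 CPM in pMIR-Sox2 (−1.45 ± 0.17, adjusted p = 0.000217). Per kilobase of exon, Sesn2 was over Sesn1 in both groups, at 39.8 against 4.89 CPM per kb in pMIR and 14.6 against 11.6 in pMIR-Sox2.

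Gpx1, the glutathione peroxidase that removes hydrogen peroxide, fell from 286, 244 and 276 CPM to 185, 157 and 214 CPM (−0.54 ± 0.13, adjusted p = 0.00984), with no overlap. Fdxr, the ferredoxin reductase of mitochondria, had the smallest fall that passed, from 20.9, 19.9 and 22.6 CPM to 16.2, 15.7 and 17.7 CPM (−0.36 ± 0.12, adjusted p = 0.0349). The pair ratios of Fdxr were nearly equal (−0.37, −0.34 and −0.35), yet its call was lost with library totals only (0.0794) and with no filter (0.0885). Leaving out pMIR replicate 1 (0.0846) or 3 (0.133) or pMIR-Sox2 replicate 1 (0.0914) or 2 (0.0979) ended it too. The replicate block kept it (adjusted p = 0.0163). Pvt1, a long noncoding RNA next to Myc that is also a p53 target, was at 16.2, 15.4 and 13.5 CPM in pMIR and at 10.2, 11.4 and 10.3 CPM in pMIR-Sox2. It fell by 0.51 on the log2 scale (−0.51 ± 0.14, adjusted p = 0.0146). The call of Pvt1 was lost without pMIR replicate 1 (0.0626) or pMIR-Sox2 replicate 1 (0.0532) and kept with the replicate block (0.00502). Its neighbour Myc was at 507, 335 and 398 CPM in pMIR and at 209, 176 and 244 CPM in pMIR-Sox2 (−0.98 ± 0.17, adjusted p = 0.00194).

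Levels of different genes can be set side by side only per length, for which 30 members had an exon length. In pMIR the highest were Gpx1 (187 CPM per kb), Rps27l (162), Ccng1 (118) and Trp53 (50.4), and in pMIR-Sox2 they were Rps27l (138), Gpx1 (129), Ccng1 (119) and Trp53inp1 (62.4). Rrm2b moved from rank 28 to rank 9 and Sesn1 from 23 to 14, while Cdkn1a moved from 7 to 11. Gdf15, Eda2r and Perp were the lowest of the 30 in pMIR-Sox2, at 0.106, 0.318 and 0.864 CPM per kb.

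Within both groups, the levels of many members varied with the replicate number. The sample descriptions give each pMIR library and the same-numbered pMIR-Sox2 library a common number (8, 9 or 12). The lowest replicate was the same in both groups for 25 of the 30 tested members (83.3%), against 47.1% of all genes tested. Among the 16 members that did not pass, this held for all 16. Replicate 2 was the lowest in both groups for 14 members, among them Cdkn1a, Phlda3, Plk2, Tnfrsf10b, Eda2r, Mdm2, Aen and Trp53 itself (46.7%, against 20.5% of all genes). Replicate 1 was the highest in both groups for 12 members (40%, against 11.9%). The members' deviations from their group means correlated across the 30 genes at r = 0.747, 0.856 and 0.424 for same-numbered libraries 1 to 3, and at r = 0.216, 0.325 and 0.151 over all 12899 genes. These are correlations across genes of the same libraries, given as a description. Eda2r, at low counts, had the widest spread of the members (highest over lowest library 2.99 in pMIR and 4.12 in pMIR-Sox2) and entered them unweighted. The values of r without Eda2r were not computed.

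**Figure D3:**
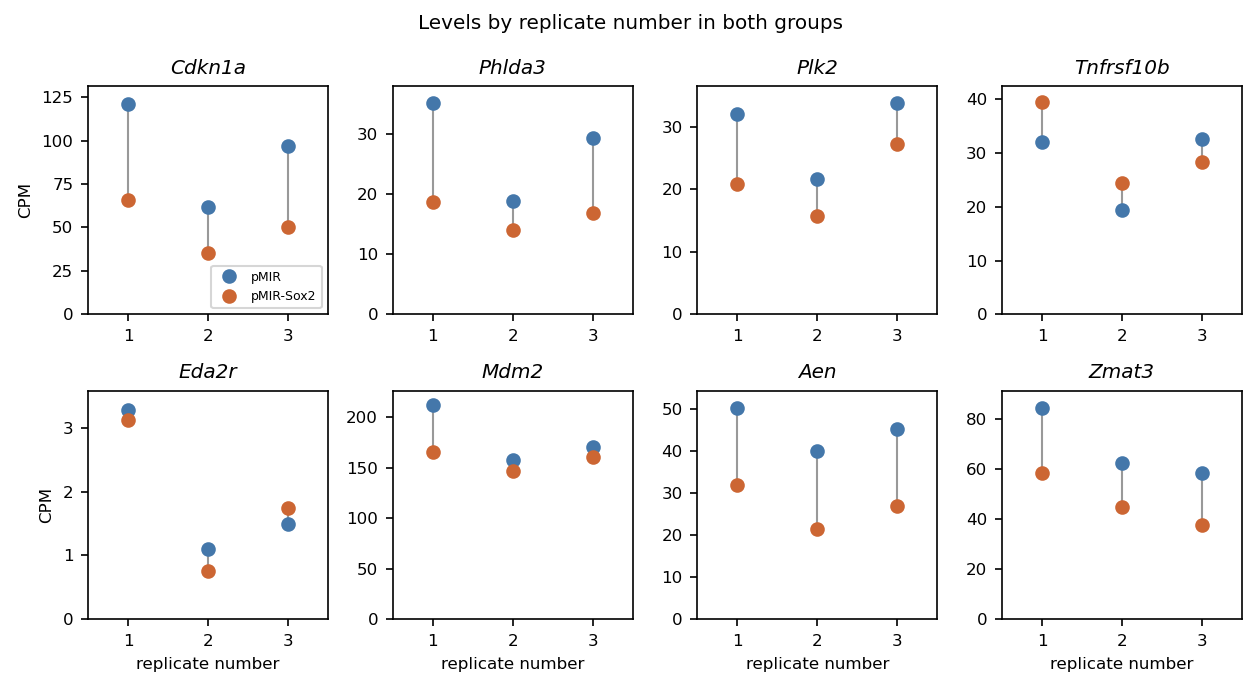
CPM of 8 members by replicate number, with blue for pMIR, orange for pMIR-Sox2 and a grey line joining the same-numbered libraries; the vertical axes start at 0 and differ between panels. In 7 of the 8 panels replicate 2 is the lowest of both groups (in Zmat3 it is replicate 3), and Cdkn1a falls within each pair.

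Replicates 1 and 2 of the control cells differed in Cdkn1a by as much as the groups did. The ratio of the highest to the lowest control was 1.96 for Cdkn1a, 1.86 for Phlda3, 1.84 for Perp, 1.68 for Tnfrsf10b and 2.99 for Eda2r, with a median of 1.25 over the tested members and 1.21 over all genes. With the replicate number as a block, 15 members passed: the same 14 and Plk2, with 4 rising and 11 falling, while 52.7% of all genes passed in that fit, 27% upward and 25.7% downward.

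Other genes of the p53 network were described by 4 lists written from general knowledge, with earlier results of these data already known. Of 43 tested regulators of p53 (kinases, ligases, deubiquitinases, cofactors and relatives), 10 rose (23.3%), 5 fell (11.6%) and 28 did not pass, with a median log2 fold change of 0.08. The share that rose was that of all genes (23.2%), and the share that fell stood beside 20% of all genes. Ppp1r13b, which encodes ASPP1, a partner that steers p53 to death genes, rose from 24.0 ± 1.51 to 50.8 ± 6.89 CPM (1.09 ± 0.13, adjusted p = 0.000230). Rchy1, the p53 ubiquitin ligase PIRH2, rose from 56.4 ± 3.77 to 103 ± 7.10 CPM (0.87 ± 0.10, adjusted p = 0.000234), and so did Sirt1, a deacetylase of p53 (0.74 ± 0.11, adjusted p = 0.000673). Usp2, a deubiquitinase of MDM2, fell from 12.8 ± 1.80 to 3.07 ± 1.34 CPM (−2.07 ± 0.28, adjusted p = 0.000521). Leaving out pMIR replicate 1 or 3 gave 6 rises (17.9% and 18.3% of all genes rose in those fits). Leaving out either of these or pMIR-Sox2 replicate 1 or 2 gave 3 falls (13.5 to 14.7% of all genes), and the replicate block gave 8 (25.7%).

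Of 50 tested further genes described as p53 targets in some cell types, 12 rose, 12 fell and 26 did not pass (24.0% each way, median −0.14). These shares were near those of all genes, of which 23.2% rose and 20% fell. Tob1, an antiproliferative gene, rose from 19.3 ± 3.03 to 72.5 ± 9.997 CPM (1.91 ± 0.15, adjusted p = 3.38e-05), and the retinoblastoma gene Rb1 from 83.8 ± 10.01 to 309 ± 58.3 CPM (1.88 ± 0.16, adjusted p = 4.67e-05). Hspa4l, a chaperone, rose by 1.47 and the Notch ligand Jag2 fell by 1.83 on the log2 scale. Both Sesn2 and Polh, a translesion polymerase that rose by 0.98, belong to this list, and Polh also to the repair list. There were 6 rises if pMIR replicate 1 or pMIR-Sox2 replicate 1 was left out, and 7 if pMIR replicate 3 or pMIR-Sox2 replicate 2 was, while 17.9 to 19% of all genes rose in these fits. Falls came to 17 in the blocked fit (25.7% of all genes fell) and to 16 without pMIR-Sox2 replicate 3 (21.7%). They came to 8 without pMIR replicate 3 (14%).

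Of 35 cell cycle genes that p21 is known to silence through the DREAM complex, 2 rose, 3 fell and 30 did not pass (5.71% and 8.57%, median −0.07), against 23.2% of all genes that rose and 20% that fell. Cenpf (0.65 ± 0.16, adjusted p = 0.00866) and Cenpe (0.56 ± 0.14, adjusted p = 0.0104), of the kinetochore, rose. Kif20a, a mitotic kinesin (−0.55 ± 0.14, adjusted p = 0.0134), and Mybl2, a cell cycle transcription factor (−0.76 ± 0.22, adjusted p = 0.0225), fell. These counts moved with the libraries used. Rises came to 5 when pMIR-Sox2 replicate 2 was left out (19% of all genes rose in that fit), 5 when only library totals were used for scaling (26.5%), 4 in the DESeq2 Wald fit (23.4%) and 5 in the blocked fit (27%). Falls came to 10 when pMIR-Sox2 replicate 3 was left out (21.7% of all genes fell) and to 8 in the blocked fit (25.7%). Dropping pMIR replicate 3, pMIR-Sox2 replicate 1 or pMIR-Sox2 replicate 2 left 1 fall (14 to 14.7% of all genes). Dropping pMIR replicate 1 left 0 falls in edgeR, with 2 at an unadjusted p under 0.05, where 13.5% of all genes fell.

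Of 46 genes of excision repair, translesion synthesis and DNA building blocks, 5 rose, 9 fell and 32 did not pass (10.9% and 19.6%, median −0.12). Of all genes 23.2% rose and 20% fell, so the share that fell was near the background. Beside Polh, the rises included Dck, which salvages deoxycytidine (0.49 ± 0.09, adjusted p = 0.00269), and Rad23b, the partner of Xpc (0.31 ± 0.10, adjusted p = 0.0361), while Ddb1, the partner of Ddb2, did not pass (0.20 ± 0.14). Gtf2h1, a subunit of TFIIH, fell from 89.8 ± 3.86 to 58.4 ± 7.25 CPM (−0.62 ± 0.11, adjusted p = 0.00223), and Rpa2, of the single-strand DNA binding complex, from 103 ± 10.8 to 60.7 ± 14.3 CPM (−0.76 ± 0.17, adjusted p = 0.00598). Leaving out pMIR replicate 2 or 3 or pMIR-Sox2 replicate 1 or 2 gave 3 rises (18.3 to 20.9% of all genes rose), and the blocked fit gave 16 falls (25.7% of all genes fell).

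**Figure D4:**
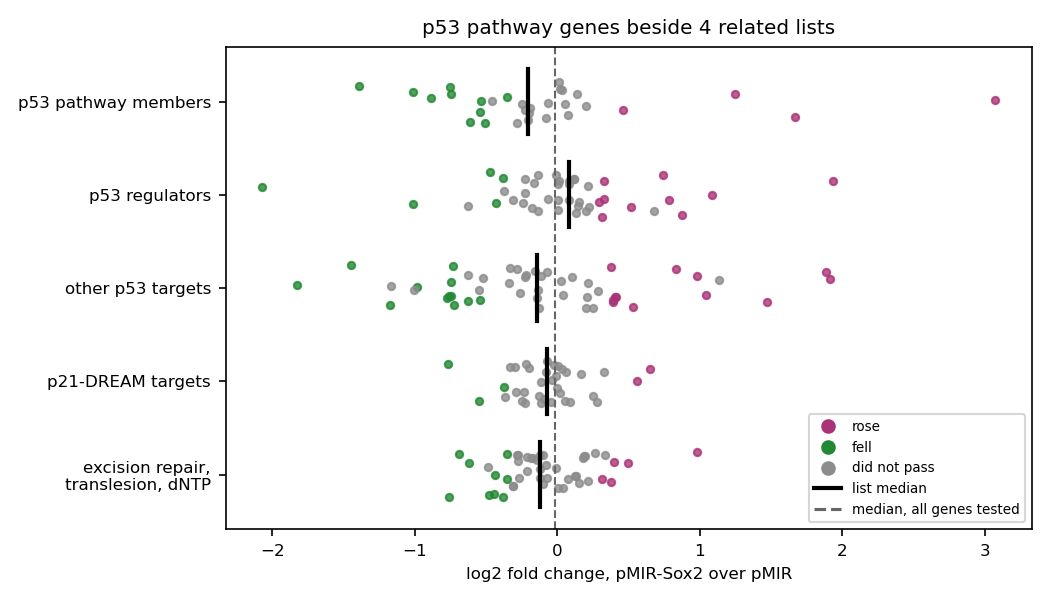
Log2 fold change, pMIR-Sox2 over pMIR, of each tested gene of the 31 p53 pathway genes and of 4 related lists (1 point per gene, spread vertically at random), with the list median as a black bar and the median of all genes tested as a dashed line. The list medians run from −0.20 for the p53 pathway genes to 0.08 for the regulators, and Rrm2b at 3.07 is the rightmost point.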

How the data were processed

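The table deposited by the authors holds unnormalized read counts for Ensembl genes in 6 libraries. The submitters' processing notes name HTSeq 0.6.1p1, SAMtools 0.1.19, Bowtie2 2.2.2, TopHat2 2.0.11, Trimmomatic 0.32 and build mm9, with no role or order. Annotation release and strand setting are not given in the sources used here. Genes held 51.9 to 53.2% of each library's total, and lines that name no gene stayed out of library sizes and tests. Groups and replicate numbers came from the sample titles.

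The whole table was fitted with edgeR 4.0.16 in R 4.3.3: filterByExpr by group, TMM, robust quasi-likelihood fits, and Benjamini-Hochberg adjustment over 12899 genes at a threshold of 0.05. SE is the log2 fold change over the root of F. Pair ratios used an offset of 0.5 counts. Alternatives of scaling were library totals only and the RLE factors of edgeR, which follow the DESeq2 method. Other tests were the DESeq2 1.42.0 Wald test and limma-voom (limma 3.58.1). The remaining alternatives were no filter (at least 1 count), a CPM of at least 1 in 3 libraries, the replicate block and leaving out each library. The numbers pair the samples: same-numbered libraries deviated together at r of 0.216, 0.325 and 0.151, and their descriptions share a number. The main fit used the group only and ignored this pairing, as did the fits that left out a library. Calls and SE come from that unpaired fit unless the replicate block is named. The script was tested on simulated data. Exon lengths are from GENCODE M21 (GRCm38), another build than mm9, and no coordinates were joined between the builds. Overlaps of exons between genes, and of promoter windows with exons, were found by coordinates within GRCm38. An exact permutation test of 3 against 3 libraries cannot go below p = 0.1 and was not used.

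The members and lists were chosen with earlier results of these data known. All 31 members are named; from each list, up to 4 genes of smallest adjusted p and partners of members. The search for decamers in tandem was added after the promoters were seen.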

Additional observations from a re-analysis of the deposited data

How the results depend on the processing

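Of the 14 members that passed, 8 kept their call in all 13 alternatives, 6 lost it in at least 1 and none reversed. Of the 16 that did not pass, 3 (Plk2, Mdm4 and Triap1) passed in at least 1 and 7 changed sign in at least 1. Leaving out each library in turn gave, as lowest and highest counts, 3 to 4 rises and 5 to 11 falls among the members, 6 to 12 and 3 to 7 among the regulators, 6 to 13 and 8 to 16 among the further targets, 2 to 5 and 0 to 10 among the p21-DREAM genes, and 3 to 5 and 6 to 13 among the repair genes, while 17.9 to 25% of all genes rose and 13.5 to 21.7% fell. With the replicate block, in which the numbers pair the libraries, the falls were 8 among the regulators and 17 among the further targets. They were 8 among the p21-DREAM genes (with 5 rises) and 16 among the repair genes, where 25.7% of all genes fell. For the members the block changed no call but that of Plk2. The p21-DREAM rises were 5 with library totals only and 4 by the DESeq2 Wald test. The sign of 7 unpassed members changed on leaving out a library, with log2 fold changes from −0.17 to 0.0124 for Trp53, −0.0736 to 0.11 for Ccng1, −0.11 to 0.17 for Btg2, −0.0729 to 0.13 for Ckap2, −0.67 to 0.55 for Eda2r (0.0119 with library totals only), −0.0804 to 0.28 for Tnfrsf10b and −0.0864 to 0.20 for Ercc5. The cause of these changes was not tested beyond the smaller number of libraries. Library totals only shifted the median of all genes by 0.08 on the log2 scale and the share of genes that rose from 23.2 to 26.5%. Low counts limit the precision for Gdf15, Eda2r and Perp.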
